A study of Mus musculus with 24 samples.

Results

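The maturation of wild-type mouse oocytes was followed from the germinal vesicle (GV) stage, when the oocyte is arrested in prophase of the first meiosis, to metaphase II (MII), when the egg waits for fertilisation. The 3 GV and the 3 MII libraries of wild-type mice were compared, which are 6 of the 24 libraries of a study of the oocyte gene Nlrp14. Every library was made from 5 oocytes with the SMART-Seq HT kit and was labelled as a biological replicate. Both groups carried the wild-type genotype and the labels name no treatment. Strain, age, hormone priming, and whether the MII eggs matured in the animal or in culture are not given in the sources used here. Levels are FPKM, a fragment count divided by transcript length and by the library's mapped fragments. Changes are differences of log2(FPKM + 1), MII minus GV, with their standard error (SE) over 3 libraries a group, on which low values change by less than their ratio does.

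A fully grown oocyte stops transcription before it resumes meiosis, so the egg and the early embryo live on transcripts stored during growth. During maturation part of that store is deadenylated by the CCR4-NOT complex, which the adaptor BTG4 brings to the mRNA, and is then degraded. Another part is dormant in the GV oocyte with short poly(A) tails, and its tails are lengthened after meiosis resumes when CPEB1 bound to a U-rich cytoplasmic polyadenylation element in the 3' UTR recruits a poly(A) polymerase. The kit primes complementary DNA from poly(A) tails, so a transcript that changed in number and one that changed in tail length cannot be told apart here. FPKM is also relative: less RNA per oocyte in all transcripts together leaves it unchanged. Fewer oocytes captured and less RNA per oocyte cannot be told apart. When some transcripts are lost, the FPKM of the others goes up without any gain in their number.

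Depth read from the steps between low values was 10.4 to 12.2 M fragments per GV library and 9.86 to 12.3 M per MII library. Between 11546 and 11662 genes reached 1 FPKM in the GV libraries, against 8756 to 8974 at MII. The 10 most abundant genes held 10.1 to 10.5% of the summed FPKM at GV and 14.8 to 15.5% at MII. Pearson's r of log2 values over the tested genes, which are not independent of each other, was 0.9873 to 0.9886 between GV libraries, 0.9849 to 0.9865 between MII libraries and 0.6424 to 0.6629 between the stages. The stages also differed in how values ran with gene length: the slope of log2 FPKM on log2 exon length over 7965 coding genes was -0.71 to -0.69 at GV and -0.10 to -0.08 at MII. All 19 oocyte identity markers were tested, with summed levels of 20337 to 21673 FPKM at GV and 17628 to 18024 FPKM at MII, although 11 of them were lower at MII, 9 by at least 2-fold, and Figla reached at most 0.55 FPKM there. Of 24 granulosa and cumulus markers 21 were too low to be tested. Their summed level was 13.5 to 17.1 FPKM at GV and 19.11 to 24.2 FPKM at MII, where most of it was Cyp19a1, while Inha was listed at 0 in all MII libraries and Foxl2, Amh, Fshr and Lhcgr reached at most 1.06 FPKM. Of 15 markers of blood, stroma and oviduct 13 were not tested either, and the 4 haemoglobin genes were listed at 0 in all 6 libraries. Lyz2 stood at 32.6 FPKM in WT_GV replicate 3 and at 0.73 FPKM or less in the other 5. Of 18 sperm and spermatid genes 4 were tested, of which Prm2, Ldhc and Odf1 were lower and Odf2 was higher, with a sum of 21.5 to 25.7 FPKM at GV and 10.9 to 11.7 FPKM at MII. The part of length and of other cells in the results was not tested.

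Most of the measured transcriptome changed. Of 11610 tested genes 9751 (84%) passed the test of limma at an adjusted p under 0.05: 6135 (52.8%) were lower at MII and 3616 (31.1%) were higher. The filter sets part of that balance. Of the tested genes 2446 reached 1 FPKM in GV libraries alone and 341 in MII libraries alone, so that the filter fixed their direction. Among the 8823 that reached 1 FPKM at both stages 3696 (41.9%) were lower and 3278 (37.2%) higher. The shares of all tested genes that stand beside gene lists below include the genes whose direction the filter fixed. Without WT_GV replicate 1, 2 or 3, when a gene can still pass through MII libraries alone but not through GV libraries alone, 3541, 3566 and 3542 genes were lower and 3436, 3414 and 3384 higher. At a change of at least 2-fold, 4637 genes (39.9%) fell, called lost below, and 1491 (12.8%) rose, called risen. The filter fixed the direction of 2082 of the lost genes, which reached 1 FPKM at GV alone, and of 52 risen genes at MII alone. Among the 8823 genes that reached it at both stages 2555 were lost and 1439 had risen. The falls were also deeper, since 1034 genes fell at least 8-fold and 134 at least 32-fold, whereas 4 rose at least 8-fold and 0 rose 16-fold. Another class, called kept, held 1423 genes (12.3%) whose 95% confidence interval lay wholly within 1.5-fold in either direction. The lost genes made up 54.4% of the summed FPKM of each GV library and 8.66 to 9.06% of each MII library. The share of the risen genes went from 14.4 to 14.9% at GV to 47.2 to 48.5% at MII, and that of the kept genes from 11.01 to 11.1% to 13.99 to 14.5%. How much the fall of the lost genes alone adds to the FPKM of the others was not tested. Higher, risen and kept thus describe FPKM and not copies per oocyte. All 3 GV libraries lay above all 3 MII libraries in 6195 genes (53.4%), and below them in 3669 (31.6%). Each library is a pool of oocytes, and the p-values rest on the variation among such pools, which may be technical in part.

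**Figure D1:**
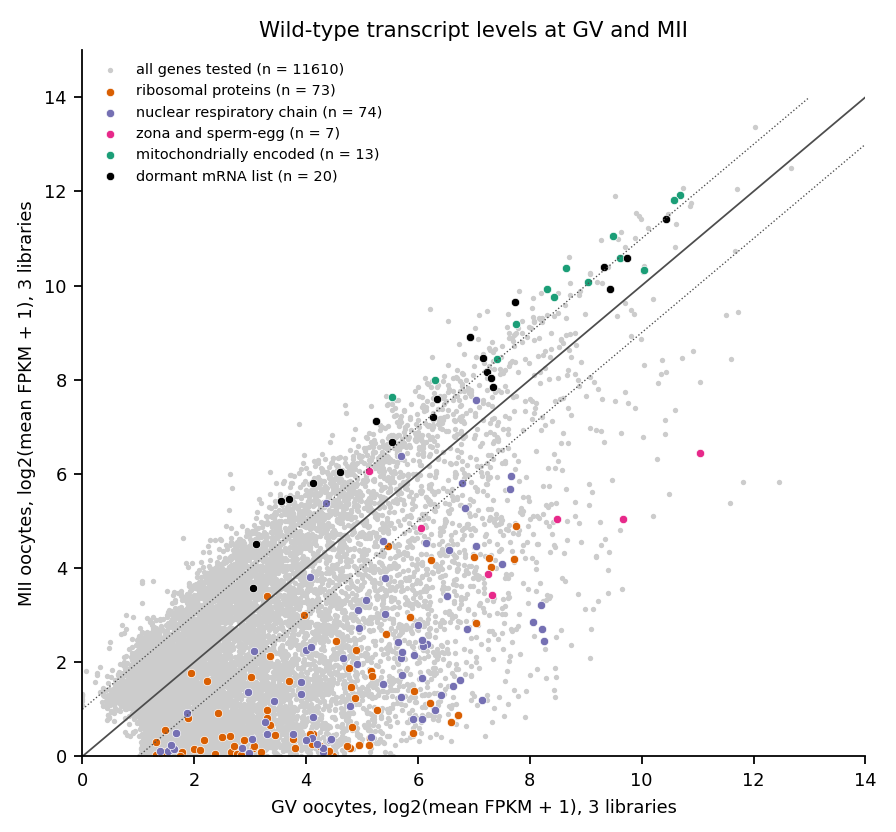
Mean level of 3 wild-type MII libraries (vertical axis) against that of 3 GV libraries (horizontal axis), both as log2(mean FPKM + 1), with 1 grey point for each of the 11610 tested genes and 5 gene lists in colour. The solid line marks equal levels and the dotted lines 2-fold. Ribosomal protein (73) and nuclear respiratory chain (74) genes lie mostly below the lower dotted line, and the mitochondrially encoded (13) and dormant mRNA (20) genes above the solid line.

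How the libraries were scaled set where the middle of the distribution lay. The median change of all tested genes was -0.50 on FPKM, -0.22 after median-of-ratios scaling, -0.36 on TPM and -0.56 with the length trend of each library removed. The share of falls among the genes that passed was 62.9%, 55.7%, 57.4% and 67.0% under these scalings. Of the 4637 lost genes 3683 were lost under all 4 scalings, and of the 1491 risen genes 856 had risen under all 4. After median-of-ratios scaling 3991 of the lost and all 1491 of the risen genes met the same rule again, while 687 of the 1423 kept genes did, and that scale gave 1270 kept and 2417 risen genes in all, with 2692 risen genes on TPM. Values below are on FPKM unless another scale is named.

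The most abundant lost transcript was Elobl, an elongin B-like gene on chromosome 11 (88964658 to 88966931, - strand). It stood at 5801, 5450.0 and 5671 FPKM in the GV libraries and at 59.4, 62.1 and 45.4 FPKM in the MII libraries, 101-fold lower in the mean (log2 -6.65, SE 0.11, adjusted p = 8.3e-09). It was the second most abundant tested transcript of the GV oocyte after Dppa3. Fcf1, a factor of small-subunit ribosomal RNA processing, had the largest log2 fall among genes with a proper name outside pseudogenes, from 358, 343 and 336 to 1.74, 2.25 and 0.949 FPKM (log2 -7.07, SE 0.17, adjusted p = 2.3e-08); its exons overlap Arel1, and how reads were divided between both genes is uncertain. Hint1, which encodes a nucleotide-binding hydrolase of the histidine triad family, went from 270.0, 251 and 242 to 2.84, 2.18 and 1.87 FPKM (log2 -6.28, SE 0.12, adjusted p = 9.7e-09). Acot13, an acyl-CoA thioesterase found at mitochondria, went from 264, 214 and 248 to 1.17, 2.14 and 1.498 FPKM (log2 -6.56, SE 0.15, adjusted p = 1.7e-08). In these 4 genes even the lowest GV library lay far above the highest MII library. The other 6 of the 10 largest falls were Cpsf4l, the mitochondrial protein gene Chchd2, the ribonuclease gene Rnaset2a, the proteasome gene Psmb7, the uridine phosphorylase gene Upp1 and Ninj2, with log2 differences from -6.83 to -6.000. Rnaset2a and Psmb7 share exon sequence with Gm49673 and Nek6.

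Several of the most abundant messages of the GV oocyte were lost. Ubb, a polyubiquitin gene, fell from 2988, 3184 and 3153 to 374, 336 and 327 FPKM (log2 -3.17, SE 0.07, adjusted p = 1.3e-08). Skp1a, the adaptor of SCF ubiquitin ligases, fell from 1121, 2041 and 1917 to 348, 359.5 and 351 FPKM (log2 -2.21, SE 0.21, adjusted p = 2.4e-05), and its first GV library was lower than the other two. Ldhb, a lactate dehydrogenase subunit, fell from 3174, 2477 and 3069 to 585, 916 and 491 FPKM (log2 -2.17, SE 0.22, adjusted p = 4e-05). The groups did not overlap in any of these. Sap18b fell from 3686, 3140.5 and 3346 to 714, 689.9 and 671 FPKM (log2 -2.29, SE 0.07, adjusted p = 5.6e-08). Nlrp14, the gene that the study deleted, was among the 8 most abundant lost transcripts with a proper name. It is annotated on chromosome 7 (107166990 to 107198102, + strand) and went from 1876, 2014 and 1922 to 380.4, 447 and 345 FPKM, which is 4.96-fold lower (log2 -2.31, SE 0.10, adjusted p = 2.3e-07).

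Among the risen transcripts Bcl2l10, a member of the BCL2 family made in oocytes (chromosome 9, 75347758 to 75351632, + strand), reached the highest level. It rose from 4330.5, 4456 and 3790.3 to 10625, 10680.0 and 10599 FPKM, 2.54-fold (log2 1.35, SE 0.07, adjusted p = 5.8e-07). Oog3, an oogenesin gene, rose from 1630.5, 1666 and 1858 to 4367, 4302 and 4313 FPKM (log2 1.33, SE 0.06, adjusted p = 3.9e-07). Oas1d, an oocyte member of the oligoadenylate synthetase family, rose from 918, 1039 and 897 to 3002, 3038 and 2884 FPKM (log2 1.65, SE 0.07, adjusted p = 2.3e-07). The 3 MII libraries of each of these genes lay close together and above all GV libraries. Mphosph6, a phosphoprotein of M phase that binds the RNA exosome, rose 2.07-fold, Ccdc69 2.69-fold and Trim61 2.86-fold (adjusted p = 6.1e-07, 1.7e-07 and 1.5e-07). Trim61 overlaps Gm45886 and Trim60.

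Of the 10 largest rises, 8 were mitochondrial tRNA genes. The highest of them, mt-Tl1, went from 77.1, 72.8 and 70.1 to 710.4, 783 and 666 FPKM (log2 3.28, SE 0.08, adjusted p = 2e-08). These 8 genes are 65 to 75 nt long and lie between protein and ribosomal RNA genes on common precursors. Of the 22 mitochondrial tRNA genes that were tested 21 passed as higher, beside 31.1% of all tested genes. The other 2 of the 10 largest rises were C86187 and Gtf2a1. C86187 is a long intergenic noncoding RNA that shares exon sequence with Gm31941. Gtf2a1 encodes the precursor of the large subunits of the transcription factor TFIIA. C86187 went from 98.6, 97.2 and 79.4 to 651, 573 and 600.4 FPKM (log2 2.72, SE 0.10, adjusted p = 1.2e-07). Gtf2a1 (chromosome 12, 91555262 to 91590487, - strand) went from 23.4, 25.2 and 27.1 to 146, 143 and 179 FPKM (log2 2.58, SE 0.11, adjusted p = 2.2e-07). It had the largest rise of the nuclear protein-coding genes with a proper name and a mean of at least 20 FPKM at MII.

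Dppa3, which protects DNA methylation of the maternal genome in the zygote and is also called Stella, was the most abundant kept transcript. It stood at 6631, 6629 and 6356 FPKM at GV and 5858, 5645 and 5794 FPKM at MII. The difference was small but passed the test (log2 -0.18, SE 0.05, adjusted p = 0.0059), and its direction belongs to the scale: it was 0.20 after median-of-ratios scaling. Bmp15, a growth factor that the oocyte sends to the surrounding cumulus cells, stood at 734, 751 and 769.5 and 644, 672 and 650.0 FPKM, with -0.20 on FPKM and 0.19 after median-of-ratios scaling. Brix1 and Rsl1d1, both ribosome assembly factors, were kept at 511, 530.0 and 491 and 711, 663 and 647 FPKM at MII. The homeobox gene Obox2 went from 3491, 3099 and 3385 to 4503, 4234 and 4048 FPKM and overlaps Obox1. For Oosp3, which overlaps Gm19224, the groups overlapped at 1732, 1385 and 1532 and 2029, 1831 and 1521 FPKM (log2 0.21, SE 0.12, adjusted p = 0.14).

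**Figure D2:**
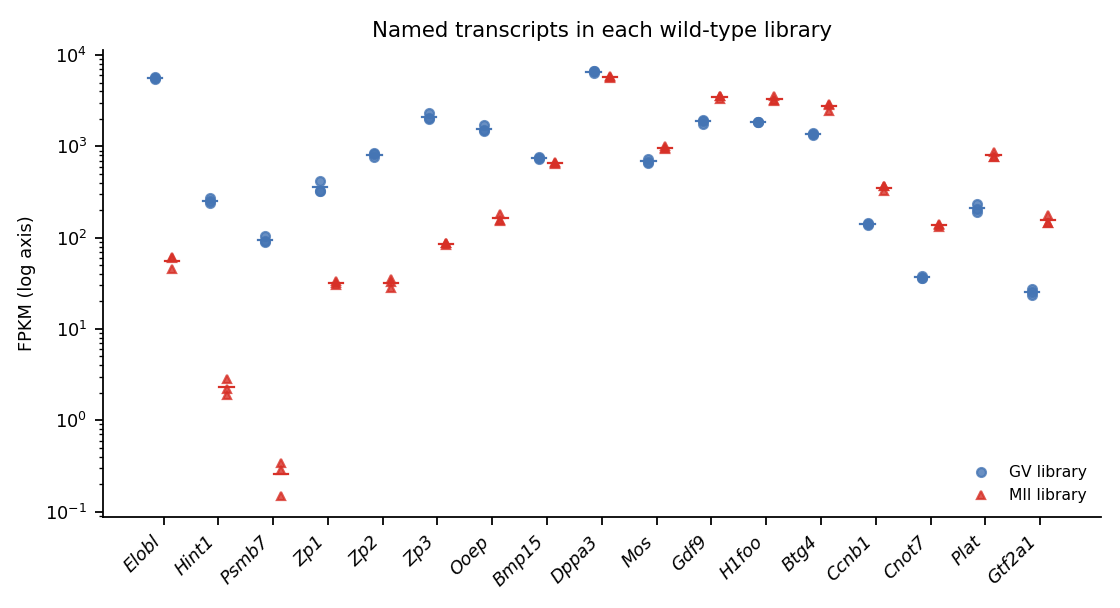
Level of 17 named genes (horizontal axis) in each wild-type library as FPKM on a log axis, 1 blue circle a GV library and 1 red triangle an MII library, with a bar at the mean of 3. Elobl, Hint1 and Psmb7 show the widest gaps downward, Bmp15 and Dppa3 lie nearly level, and all 3 MII points of Mos, Gdf9, H1foo, Btg4, Ccnb1, Cnot7, Plat and Gtf2a1 lie above the GV points.

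The ends of the mRNAs differed between the classes. In the annotation the end of each 3' UTR was searched on the transcript strand for a cytoplasmic polyadenylation element (TTTTAT or TTTTAAT) and for the poly(A) signal (AATAAA or ATTAAA), both read as DNA letters. The windows of 30 bases below lie within the last 100 bases of the 3' UTR of 1 GENCODE M21 transcript a gene (GRCm38), written 5' to 3' on the transcript strand, with both elements in capitals. The first 5 belong to transcripts that were lost and show a poly(A) signal alone.
Elobl (chr11:88964664-88964693, - strand): tttaaAATAAAtATTAAAtaaccctaaaag
Hint1 (chr11:54870462-54870491, + strand): aattctgtgcctAATAAAagacattgttgc
Acot13 (chr13:24817954-24817983, - strand): acaactttctgaAATAAAttatcaaaacca
Chchd2 (chr5:129881161-129881190, - strand): tgagttaaaaaaAATAAAttggttattctg
Zp2 (chr7:120132359-120132388, - strand): ttggacttgcaAATAAAgagactgcagtta
The next 6 belong to transcripts that were higher at MII and show the element beside the signal, on either side of it and in Bub1b directly next to it.
Gtf2a1 (chr12:91555267-91555296, - strand): taatcatAATAAAgataTTTTATttattgc
Bcl2l10 (chr9:75351590-75351619, + strand): tTTTTAATaacttcaaattcttAATAAAtg
Oog3 (chr4:144157558-144157587, - strand): atAATAAAtgtgttaactttgTTTTATttt
Bub1b (chr2:118641556-118641585, + strand): cactgtgtaTTTTATAATAAAatagttttt
Wee2 (chr6:40466780-40466809, + strand): tcattgtaAATAAAgaTTTTATcttatcca
Gdf9 (chr11:53437862-53437891, + strand): gtggTTTTATgtgacggaagAATAAActgt
These were picked as examples with their values known. Mos and Ccnb1 were higher at MII without the element in their last 100 bases, and their windows are given for contrast.
Mos (chr4:3870661-3870690, - strand): atatttttaggaAATAAAgttaccacgaac
Ccnb1 (chr13:100778656-100778685, - strand): ctttatgttgctAATAAAcatagttttcga

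Over all coding genes with a 3' UTR of at least 100 bases, the element stood in the last 100 bases of 9.57% of 2603 lost, 21.4% of 1062 kept and 37.7% of 1204 risen genes, beside 21.3% of all 7711 tested. Read the other way, 15.2% of the 1640 genes with the element were lost and 27.7% had risen, against 38.8% and 12.4% of the 6071 genes without it. The median change was 0.54 with the element and -0.47 without. A Pumilio element (TGTANATA) was found in 3.96% of lost, 4.71% of kept, 6.98% of risen and 5.29% of all tested genes, and an AU-rich element (TATTTAT) in 2.57, 4.71, 7.06 and 4.50%. The poly(A) signal, which most mRNAs carry, was found in 75.6, 84.7, 91.0 and 82.2%. Base composition moved with all of these: the median share of A and T in the window was 61% in lost, 67% in kept, 70% in risen and 66% in all tested genes. Its part in the element counts was not tested. The element (TTTTAT or TTTTAAT) and the AU-rich element can share bases where they meet, both were searched on the transcript strand alone, and a match in a sequence is no measure of binding.

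Transcript length also differed between the classes. The median exon length was 2726 nt for lost, 5070 nt for kept and 5089 nt for risen genes, beside 4005 nt for all tested coding genes, and the median 3' UTR was 423.5, 1132.5, 1304.5 and 847.5 nt. Coding genes were divided into 5 groups of 1660 by exon length. In the shortest group, 180 to 2096 nt, 62.0% were lost and 6.39% had risen, and in the longest, 7149 nt and more, 10.9% were lost and 21.6% had risen. Within each group the lost share was lower among genes with the element: 28.1% against 65.8% in the shortest, 17.0% against 38.5% in the middle one and 5.30% against 12.6% in the longest. The risen share with and without it was 18.6% and 4.11% in the shortest group and 29.2% and 18.9% in the longest. These shares are a description with no test, and the length slope of the libraries themselves differed between the stages, as given above. Genes that passed the filter at GV alone were not set apart in them.

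**Figure D3:**
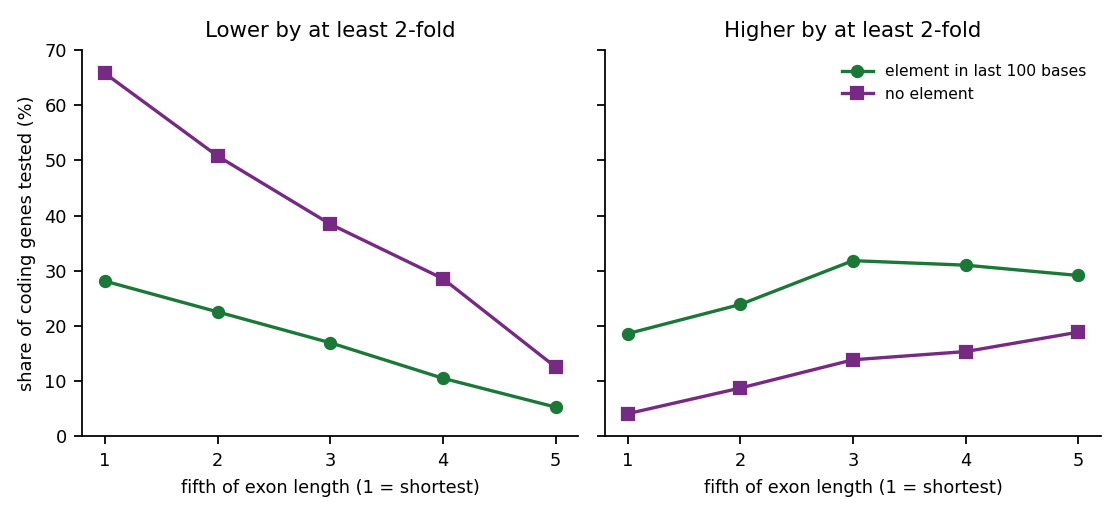
Share of coding genes lost and risen (vertical axis, percent) in 5 equal groups of exon length from shortest (1) to longest (5) (horizontal axis), for genes with and without a cytoplasmic polyadenylation element in the last 100 bases of the 3' UTR. The share lost falls with length in both sets and lies lower with the element in all 5 groups, and the share risen lies higher with it.

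Transcripts known from the literature to be dormant at GV and recruited during maturation were nearly all higher at MII. Of 20 such genes 19 were higher and none was lower, 12 of them by at least 2-fold, with a median of 1.20 against -0.50 for all tested genes. All 20 reached 1 FPKM at both stages. Among the 8823 genes that did so 37.2% were higher, 41.9% were lower and 1439 had risen at least 2-fold. Bub1b, a kinase-like protein of the spindle checkpoint, rose from 112, 126 and 126 to 493, 478 and 467 FPKM (log2 1.97, SE 0.07, adjusted p = 1e-07). Plat, tissue plasminogen activator and the classic example of a masked oocyte mRNA, rose from 208, 237 and 193 to 771, 863 and 756 FPKM (log2 1.90, SE 0.09, adjusted p = 5e-07). The groups were far apart in both. Ccnb1, the cyclin that activates CDK1 in maturation promoting factor, rose from 139, 143 and 142 to 324, 366 and 368 FPKM (log2 1.31, SE 0.07, adjusted p = 8.5e-07). Mos, the kinase that holds the egg at metaphase II, rose less, from 661, 722 and 677 to 939, 1013 and 963 FPKM (log2 0.50, SE 0.06, adjusted p = 9.5e-05). The exception was Obox5, at 1348, 577 and 634 FPKM at GV and 1921, 1858 and 798 FPKM at MII, where libraries of both stages were spread and overlapped (log2 0.84, SE 0.43, adjusted p = 0.1). Of the 20 genes, 8 (40.0%) carry the element in their last 100 bases. With the length trend removed the median was 0.91. The list was drawn up with earlier results of these data known.

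Several messages of the deadenylation machinery were themselves higher at MII. Of 20 tested genes of the BTG4 and CCR4-NOT list 13 were higher and 6 lower (median 0.67), beside 31.1% higher and 52.8% lower of all tested genes. Of the 16 that reached 1 FPKM at both stages 11 were higher and 4 lower, beside 37.2% and 41.9% of all such genes. With the length trend removed 9 of the 20 were higher and 7 lower (median 0.19). On FPKM their summed level went from 1562 to 1629 FPKM at GV to 2991 to 3455 FPKM at MII. Btg4 made up most of that sum and rose from 1373, 1337 and 1413 to 2819, 2942 and 2462 FPKM (log2 0.99, SE 0.07, adjusted p = 5.6e-06). All 4 genes of catalytic subunits, Cnot6, Cnot6l, Cnot7 and Cnot8, were higher. Cnot7, a deadenylase subunit whose exons overlap Zdhhc2, went from 38.3, 36.5 and 36.1 to 142, 139 and 132 FPKM (log2 1.87, SE 0.07, adjusted p = 1.1e-07). Its paralogue Cnot8 went from 47.1, 54.4 and 50.4 to 129, 137 and 145 FPKM (log2 1.42, SE 0.08, adjusted p = 1.2e-06). Cnot6l, the other kind of deadenylase subunit, went from 24.04, 23.4 and 22.5 to 63.5, 62.6 and 67.8 FPKM (log2 1.43, SE 0.07, adjusted p = 6.9e-07). In none of these did the groups overlap. The scaffold gene Cnot1 was at 2.37, 2.30 and 2.62 FPKM at GV and fell to 1.04, 1.55 and 1.30 FPKM (log2 -0.58, SE 0.12, adjusted p = 0.0019). The 5 other members that were lower were Tob1, Cnot10, Parn, Cnot2 and Tob2. Cnot1, Cnot2 and Tob2 share exon sequence with 4930513N10Rik, 5330438D12Rik and Gm49476.

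Of 21 decapping and decay adaptors 16 were higher and 2 lower (median 0.62), beside 31.1% and 52.8% of all tested genes. Of the 19 that reached 1 FPKM at both stages 14 were higher and 2 lower, beside 37.2% and 41.9% of all such genes. With the length trend removed 11 of the 21 were higher and 4 lower (median 0.30). Dcp1a, the activator of the decapping enzyme, rose from 10.7, 12.3 and 9.30 to 38.6, 43.3 and 43.2 FPKM (log2 1.86, SE 0.11, adjusted p = 1.7e-06), and Upf1, the helicase of nonsense-mediated decay, from 7.99, 7.76 and 6.60 to 23.6, 24.5 and 29.5 FPKM (log2 1.66, SE 0.12, adjusted p = 4.1e-06). Upf1 overlaps Cers1 and Gdf1. The lower members were Patl2, at 20.5, 22.8 and 21.6 FPKM at GV and 5.71, 5.16 and 5.95 FPKM at MII (log2 -1.78, SE 0.09, adjusted p = 8.1e-07), and Ythdf1. Patl2 and its paralogue Patl1, both of a family that links translation repression to decapping, thus moved in opposite directions: Patl1 rose from 2.46, 2.70 and 2.72 to 6.27, 6.28 and 6.34 FPKM (log2 1.009, SE 0.09, adjusted p = 1.8e-05).

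Storage and polyadenylation factors were divided, with 12 of 32 lower, 13 higher and a median of 0.22, beside 52.8% lower and 31.1% higher of all tested genes. Of the 29 that reached 1 FPKM at both stages 37.9% were lower and 41.4% higher, close to the 41.9% and 37.2% of all such genes. After median-of-ratios scaling 11 of the 32 were lower and 19 higher (median 0.57). With the length trend removed 14 were lower and 12 higher (median 0.06). Zar1l, a zygote arrest family gene, fell from 704, 692 and 647 to 18.1, 21.4 and 18.2 FPKM (log2 -5.08, SE 0.08, adjusted p = 8.3e-09), whereas for Zar1, its relative that binds stored mRNAs, the groups overlapped at 159, 157 and 138 and 143, 180.1 and 208 FPKM. Ybx2, the germ cell Y-box protein that packages stored mRNA, fell from 15.1, 18.9 and 13.3 to 1.34, 1.27 and 1.69 FPKM (log2 -2.77, SE 0.14, adjusted p = 7.7e-07). Pabpc1l, the poly(A)-binding protein of oocytes, fell from 27.7, 25.3 and 20.7 to 2.995, 2.71 and 3.27 FPKM (log2 -2.67, SE 0.13, adjusted p = 4.8e-07). The message for the element-binding protein itself, Cpeb1, was lower at MII and that of its relative Cpeb4 higher, at 0.302, 1.74 and 1.27 FPKM before and 10.3, 8.86 and 6.69 FPKM after (log2 2.24, SE 0.28, adjusted p = 0.00012). Cpeb1 stood at 64.2, 71.6 and 57.2 and then 27.7, 25.9 and 25.5 FPKM (log2 -1.25, SE 0.10, adjusted p = 7e-06). Lsm14a, an RNA granule protein, rose from 22.9, 19.97 and 22.1 to 64.4, 63.1 and 64.3 FPKM (log2 1.52, SE 0.08, adjusted p = 7.3e-07); 2310043P16Rik and Gm12764 overlap it.

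Cell cycle genes of the metaphase II arrest were divided. Of 33 tested genes 17 were higher and 11 lower (median 0.49), beside 31.1% and 52.8% of all tested genes. Of the 31 that reached 1 FPKM at both stages 17 were higher and 9 lower, beside 37.2% and 41.9% of all such genes. With the length trend removed 16 of the 33 were higher and 14 lower (median 0.22). Ccna2, cyclin A, rose from 13.02, 13.2 and 11.9 to 56.5, 61.0 and 65.8 FPKM (log2 2.18, SE 0.09, adjusted p = 2.1e-07; exons shared with Exosc9). Map2k1, a kinase of the cascade below MOS, rose from 43.4, 49.5 and 43.2 to 157, 163 and 171 FPKM (log2 1.83, SE 0.08, adjusted p = 2.8e-07). Cdc20, the activator of the anaphase promoting complex at anaphase, rose from 43.8, 52.0 and 44.5 to 144, 152 and 153 FPKM (log2 1.66, SE 0.08, adjusted p = 6.7e-07; exons shared with Elovl1). The inhibitors of that complex parted: Fbxo5, which is EMI1, fell from 77.8, 88.9 and 79.9 to 19.5, 18.9 and 18.5 FPKM (log2 -2.06, SE 0.08, adjusted p = 1.7e-07), and Fbxo43, which is the egg form EMI2 that keeps the arrest, rose from 12.3, 12.9 and 10.4 to 41.1, 40.8 and 47.6 FPKM (log2 1.78, SE 0.11, adjusted p = 1.8e-06). The CDK1 inhibitory kinases parted likewise, with somatic Wee1 lower at 0.564, 0.569 and 0.547 FPKM after 3.04, 4.72 and 3.63 FPKM and oocyte Wee2 higher at 257, 260.2 and 266 FPKM after 156, 159 and 159 FPKM (adjusted p = 1.4e-05 and 6.6e-06). Cdk1 itself went from 41.8, 40.0 and 38.9 to 17.1, 18.4 and 19.14 FPKM (log2 -1.10, SE 0.08, adjusted p = 4.7e-06).

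Spindle, checkpoint and cohesion genes showed the same split, with 22 of 42 higher, 15 lower and a median of 0.48. All 42 reached 1 FPKM at both stages, and of all such genes 37.2% were higher and 41.9% lower. With the length trend removed 19 of the 42 were higher and 18 lower (median 0.05). Tacc3, a spindle pole protein whose exons overlap Tmem129, fell from 267, 283 and 296 to 19.0, 23.5 and 22.8 FPKM (log2 -3.64, SE 0.09, adjusted p = 2.9e-08). Birc5, the survivin subunit of the chromosomal passenger complex, fell from 318, 321 and 321 to 39.5, 35.7 and 39.7 FPKM (log2 -3.03, SE 0.07, adjusted p = 1.5e-08), while its partner Cdca8 rose from 61.4, 69.3 and 59.4 to 138, 141 and 140.0 FPKM (log2 1.13, SE 0.08, adjusted p = 3.1e-06; exons shared with 9930104L06Rik). Within the checkpoint, Bub1 fell from 31.5, 30.1 and 32.8 to 7.04, 6.63 and 6.35 FPKM (log2 -2.08, SE 0.09, adjusted p = 2.2e-07), opposite to Bub1b. Of the 3 Aurora kinases, Aurka at -0.67 (SE 0.07) and Aurkb at -0.81 (SE 0.13) fell and the germ cell form Aurkc at 0.94 (SE 0.07) rose.

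**Figure D4:**
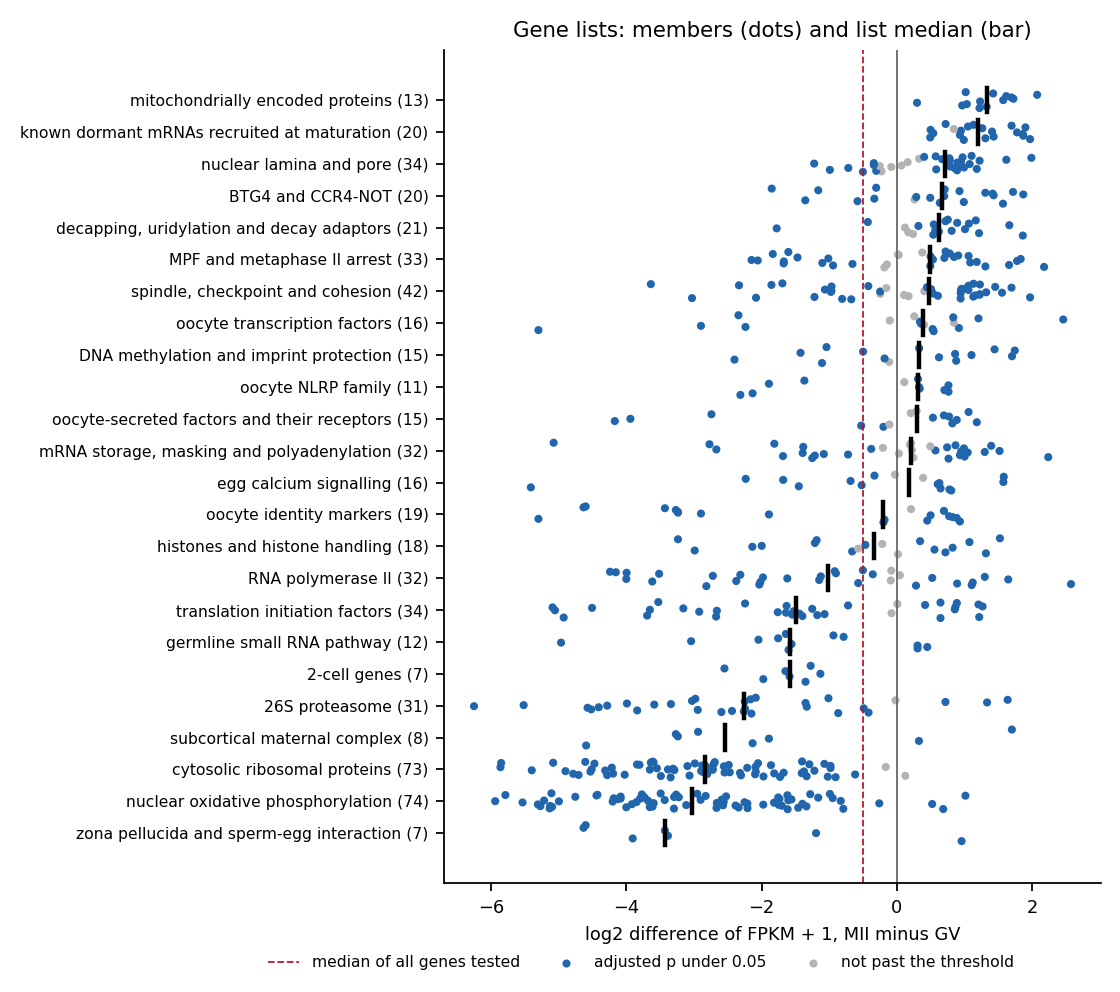
Log2 difference of FPKM + 1, MII minus GV (horizontal axis), of every tested member of each gene list with at least 5 of them (1 dot a gene, 1 row a list, blue where the adjusted p was under 0.05). Black bars mark list medians and the dashed line the median of all 11610 tested genes, -0.50. Ribosomal, respiratory and zona genes lie to the left with medians of -2.83, -3.03 and -3.43, and the dormant mRNAs and the mitochondrial genome to the right with 1.20 and 1.33.

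The genes for the egg coat were among those lost. The zona pellucida is the glycoprotein coat laid down while the oocyte grows. Of 7 tested genes of the coat and of sperm binding 6 were lower and 1 higher (median -3.43), beside 52.8% and 31.1% of all tested genes. Zp3 fell from 2061, 2309.8 and 1970.1 to 82.8, 88.0 and 86.5 FPKM, 24.6-fold (log2 -4.60, SE 0.07, adjusted p = 8.3e-09). Zp2 fell from 767, 842 and 829 to 32.4, 35.0 and 28.1 FPKM (log2 -4.64, SE 0.09, adjusted p = 1.1e-08), and Zp1 from 328, 415 and 325 to 30.03, 33.9 and 31.9 FPKM (log2 -3.43, SE 0.11, adjusted p = 6.4e-08). Izumo1r, which encodes JUNO, the receptor for sperm IZUMO1, fell from 154, 153 and 147 to 14.1, 13.9 and 12.7 FPKM (log2 -3.39, SE 0.07, adjusted p = 1.5e-08). No library of 1 stage reached into the range of the other in these 4 genes. The exception was Astl, the protease ovastacin that cleaves ZP2 after fertilisation, at 29.9, 43.8 and 27.8 FPKM at GV and 61.9, 67.5 and 67.0 FPKM at MII (log2 0.96, SE 0.16, adjusted p = 0.00067).

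Signals between oocyte and cumulus cells were divided, with 7 of 15 tested genes higher and 5 lower (median 0.29), beside 31.1% and 52.8% of all tested genes. Of the 14 that reached 1 FPKM at both stages 7 were higher and 4 lower, beside 37.2% and 41.9% of all such genes. Gdf9, a growth factor of the oocyte, rose from 1914, 1943 and 1773 to 3333, 3548 and 3528 FPKM (log2 0.89, SE 0.06, adjusted p = 2.4e-06), while its partner Bmp15 was kept. Fgf8, a fibroblast growth factor, fell from 25.02, 28.7 and 32.6 to 0.645, 0.605 and 0.676 FPKM (log2 -4.17, SE 0.12, adjusted p = 3.9e-08). Gja4, connexin 37 of the gap junctions with the follicle cells, fell from 347, 387 and 304 to 21.3, 20.8 and 22.3 FPKM (log2 -3.94, SE 0.10, adjusted p = 2.2e-08). Oosp2 fell from 922, 619.8 and 843 to 129, 107 and 114 FPKM (log2 -2.74, SE 0.15, adjusted p = 9.4e-07), and its neighbour in the family Oosp1 rose from 1696, 1405 and 1572 to 2353, 2775 and 2447 FPKM (log2 0.70, SE 0.09, adjusted p = 0.00014).

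Most messages of the subcortical maternal complex, a protein assembly under the oocyte membrane that the embryo inherits, were lost. Of 8 genes 6 were lower, all by at least 2-fold, and 2 were higher (median -2.54), beside 52.8% lower and 31.1% higher of all tested genes. Khdc3 fell from 93.1, 89.6 and 94.0 to 2.77, 2.84 and 2.95 FPKM (log2 -4.60, SE 0.08, adjusted p = 8.3e-09), and Ooep from 1694, 1502 and 1469 to 157, 182 and 153 FPKM (log2 -3.24, SE 0.09, adjusted p = 3.6e-08). Padi6 fell from 1302, 1649.8 and 1168 to 144, 141 and 136 FPKM (log2 -3.27, SE 0.12, adjusted p = 1.3e-07). The higher members were Zbed3, at 695, 614 and 542 and then 1964, 1896 and 2148 FPKM (log2 1.70, SE 0.10, adjusted p = 1.2e-06), and Nlrp4f, which stayed within the kept class. Khdc3 shares exon sequence with Gm20509, Nlrp2 with Gm18757 and Nlrp9b with Gm18877. The oocyte NLRP genes moved in both directions: Nlrp14, Nlrp2, Nlrp5 and Nlrp9b were lower, while all 5 tested Nlrp4 genes and Nlrp9c were higher by 0.31 to 0.76. Nlrp5 fell from 168, 212 and 181 to 50.6, 51.6 and 46.3 FPKM (log2 -1.89, SE 0.10, adjusted p = 7.6e-07). These NLRP genes are close paralogues, so that reads may be split between them, and the median of the 11 genes was 0.31 on FPKM and -0.07 with the length trend removed.

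Transcription factors of the growing oocyte also parted. Of 16 tested 4 were lower and 8 higher (median 0.38), beside 52.8% and 31.1% of all tested genes. Of the 14 that reached 1 FPKM at both stages 2 were lower and 8 higher, beside 41.9% and 37.2% of all such genes. Figla, which drives the zona genes, fell 113-fold from 58.3, 54.0 and 66.2 to 0.526, 0.550 and 0.506 FPKM (log2 -5.30, SE 0.10, adjusted p = 1.1e-08). Nobox fell from 96.9, 116 and 84.1 to 10.3, 13.4 and 13.6 FPKM (log2 -2.90, SE 0.15, adjusted p = 6.7e-07), and Lhx8 from 37.0, 39.8 and 35.9 to 6.71, 6.52 and 8.39 FPKM (log2 -2.24, SE 0.11, adjusted p = 5.7e-07). Sohlh2, a helix-loop-helix factor of early follicles, went the other way, from 1.26, 1.61 and 1.29 to 11.3, 11.7 and 13.5 FPKM (log2 2.46, SE 0.11, adjusted p = 4e-07). The other member that fell was Zglp1, which overlaps Gm49373.

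Ribosomal protein messages were lower nearly throughout. Of 73 tested cytosolic ribosomal protein genes 71 were lower and none was higher, 67 of them by at least 2-fold, with a median of -2.83 (between -3.31 and -2.54 on the other scales). Over all tested genes 52.8% were lower, 31.1% higher and 39.9% lower by at least 2-fold. Of the 73, 44 reached 1 FPKM at GV alone, which fixed their direction. Of the 29 measured at both stages 27 were lower, beside 41.9% of all such genes. Their summed level went from 2328 to 2448 FPKM in the GV libraries to 206 to 224 FPKM in the MII libraries. Rps4x went from 109, 98.0 and 107 to 0.705, 0.943 and 0.829 FPKM (log2 -5.85, SE 0.09, adjusted p = 8.3e-09). Many of these genes have processed pseudogenes to which reads can also map, and the division of reads is uncertain. Among translation initiation factors 23 of 34 were lower and 9 higher (median -1.48), beside 52.8% and 31.1% of all tested genes. The filter fixed the direction of 4 of these factors, which reached 1 FPKM at GV alone. Among the 30 that reached it at both stages 19 were lower and 9 higher, beside 41.9% and 37.2% of all such genes. Subunits of the EIF3 complex were among the deepest falls: Eif3m went from 114, 109 and 118 to 2.26, 2.08 and 2.76 FPKM (log2 -5.09, SE 0.10, adjusted p = 1.1e-08; exons shared with Ccdc73) and Eif3g from 84.1, 86.3 and 93.7 to 2.13, 1.53 and 1.41 FPKM (log2 -5.06, SE 0.12, adjusted p = 1.9e-08). Eif1ax, which scans for the start codon, went from 141, 113 and 137 to 2.75, 3.92 and 3.25 FPKM (log2 -4.93, SE 0.13, adjusted p = 3.2e-08).

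The 2 genomes that encode the respiratory chain went in opposite directions. Of 74 nuclear genes of oxidative phosphorylation 71 were lower and 3 higher (median -3.03), beside 52.8% and 31.1% of all tested genes. At both stages 52 of the 74 reached 1 FPKM, of which 49 were lower, beside 41.9% of all such genes. The other 22 reached it at GV alone, which fixed their direction. The summed level of the 74 genes went from 4537 to 4763 FPKM to 770 to 827 FPKM. Sdhd, an anchor subunit of succinate dehydrogenase, fell from 304, 301 and 303 to 4.37, 4.46 and 4.63 FPKM, 67.5-fold (log2 -5.79, SE 0.07, adjusted p = 5.3e-09). Ndufa9 of complex I fell from 146, 137 and 139 to 1.16, 1.48 and 1.27 FPKM (log2 -5.94, SE 0.09, adjusted p = 8.3e-09; exons shared with 1700018A23Rik). Cox7b of cytochrome oxidase fell from 83.02, 70.9 and 78.9 to 1.011, 0.829 and 1.10 FPKM (log2 -5.31, SE 0.10, adjusted p = 1.1e-08). All 13 protein genes of the mitochondrial genome were higher (median 1.33, and 1.62 to 1.75 on the other scales), with a sum of 7367 to 8463 FPKM at GV and 16305 to 19836 FPKM at MII. All 13 reached 1 FPKM at both stages, and of all such genes 37.2% were higher. The most abundant of the 11 that rose at least 2-fold were mt-Cytb, at 1609.6, 1520.2 and 1432 and then 3252, 3864 and 3626 FPKM (log2 1.23, SE 0.08, adjusted p = 2.1e-06), and mt-Atp6, which overlaps mt-Atp8 and mt-Co3. In mt-Nd2 the values were 419, 409 and 368 and 1239, 1438 and 1286 FPKM (log2 1.73, SE 0.08, adjusted p = 4.1e-07; exons shared with mt-Tw). The exception in size was mt-Co3, whose groups overlapped at 1204, 985 and 959 and 1142, 1459.8 and 1272 FPKM and which passed with the smallest change (log2 0.30, SE 0.12, adjusted p = 0.041). That call was lost without WT_GV replicate 2 or 3 (limma adjusted p = 0.119 and 0.136) and without WT_MII replicate 2 or 3 (0.135 and 0.0778), and also with a pseudocount of 0.1 (0.05004), with no filter (0.0986), with a replicate block (0.0741) and with all 24 libraries in one fit (0.557). Mitochondrial genes held 2.24 to 2.45% of the summed FPKM at GV and 6.33 to 7.48% at MII.

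Proteasome subunits were also mostly lower: 27 of 31 were lower and 3 higher (median -2.26), beside 52.8% and 31.1% of all tested genes. The filter fixed the direction of 2 of them, which reached 1 FPKM at GV alone. Among the 29 that reached it at both stages 25 were lower and 3 higher, beside 41.9% and 37.2% of all such genes. Psmc2, an ATPase of the regulatory particle, fell from 94.9, 95.9 and 99.4 to 1.13, 1.39 and 0.891 FPKM (log2 -5.52, SE 0.11, adjusted p = 1.1e-08), and Psma6 of the core from 271, 256 and 260.3 to 18.3, 18.1 and 15.9 FPKM (log2 -3.84, SE 0.08, adjusted p = 1.1e-08). The 3 that were higher, Psmd1, Psmd3 and Psmd11, all belong to the regulatory particle, and Psmd3 overlaps Gm12356. Psmd1 went from 27.8, 28.3 and 27.6 to 66.1, 74.1 and 76.1 FPKM (log2 1.34, SE 0.08, adjusted p = 1.5e-06; exons shared with Gm21972 and Htr2b). Of RNA polymerase II and its general factors 21 of 32 were lower and 8 higher (median -1.02), beside 52.8% and 31.1% of all tested genes. Among the 31 that reached 1 FPKM at both stages 21 were lower and 7 higher, beside 41.9% and 37.2% of all such genes. The small subunit gene Polr2l fell from 57.0, 43.7 and 47.6 to 1.60, 2.31 and 1.58 FPKM (log2 -4.16, SE 0.14, adjusted p = 9.6e-08), Gtf2f1 of TFIIF from 79.3, 90.9 and 78.8 to 5.14, 6.24 and 6.16 FPKM (log2 -3.62, SE 0.10, adjusted p = 4.1e-08), while Polr2c rose from 61.2, 65.8 and 59.3 to 159, 154 and 149.8 FPKM (log2 1.30, SE 0.07, adjusted p = 8.2e-07; exons shared with Dok4). Both TFIIA genes of the list, Gtf2a1 and Gtf2a2, were among those that rose.

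Genes of the nuclear lamina and pore, structures taken apart at nuclear envelope breakdown, were mostly higher on FPKM. There 21 of 34 were higher and 7 lower (median 0.72), beside 31.1% and 52.8% of all tested genes. Among the 32 that reached 1 FPKM at both stages 20 were higher and 7 lower, beside 37.2% and 41.9% of all such genes. With the length trend removed 15 of the 34 were higher and 12 lower (median 0.22). Seh1l, a scaffold nucleoporin, rose from 16.2, 17.2 and 17.3 to 70.1, 64.9 and 76.3 FPKM (log2 1.99, SE 0.09, adjusted p = 2.8e-07; exons shared with 4930549G23Rik). Nup37 of the same subcomplex rose from 62.5, 57.0 and 65.9 to 139.7, 132 and 123 FPKM (log2 1.08, SE 0.08, adjusted p = 6.3e-06), and the membrane nucleoporin Ndc1 from 6.12, 5.79 and 5.68 to 13.9, 14.1 and 15.8 FPKM (log2 1.18, SE 0.09, adjusted p = 7.4e-06). The lowest of the list was Nup43 at -1.22 (SE 0.12).

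Of 15 tested genes of DNA methylation and imprint protection 8 were higher and 6 lower (median 0.33), beside 31.1% and 52.8% of all tested genes. Of the 14 that reached 1 FPKM at both stages 50.0% were higher and 42.9% lower, beside 37.2% and 41.9% of all such genes. Tet3, the dioxygenase that oxidises 5-methylcytosine in the zygote, rose from 10.4, 9.81 and 9.45 to 31.8, 36.4 and 38.4 FPKM (log2 1.75, SE 0.10, adjusted p = 1.1e-06), and Trim28, a corepressor at imprints, from 6.03, 6.41 and 5.16 to 17.3, 18.4 and 17.3 FPKM (log2 1.45, SE 0.10, adjusted p = 3.9e-06). Dnmt3l, the cofactor of methylation during oocyte growth, fell from 36.1, 42.4 and 34.6 to 6.42, 6.90 and 5.61 FPKM (log2 -2.40, SE 0.11, adjusted p = 4.6e-07; exons shared with Aire). Dnmt1, the maintenance enzyme, fell from 81.6, 86.8 and 96.8 to 34.6, 46.7 and 40.9 FPKM (log2 -1.11, SE 0.12, adjusted p = 5.1e-05). Among 18 histone and histone handling genes 8 were lower and 7 higher (median -0.34), close to the 52.8% and 31.1% of all tested genes. The filter fixed the direction of 2, which reached 1 FPKM at GV alone. Among the 16 that reached it at both stages 6 were lower and 7 higher, beside 41.9% and 37.2% of all such genes. Npm2, the chaperone that remodels sperm chromatin, fell from 1249, 941 and 939 to 93.9, 119.6 and 114 FPKM (log2 -3.24, SE 0.14, adjusted p = 2.5e-07; exons shared with Xpo7). Slbp, the stem-loop binding protein of histone mRNAs, rose from 194, 187 and 195 to 582, 555 and 528 FPKM (log2 1.53, SE 0.06, adjusted p = 2.1e-07; exons shared with Gm10459). The oocyte linker histone H1foo rose from 1853, 1863 and 1844 to 3543, 3214 and 3119 FPKM (log2 0.83, SE 0.06, adjusted p = 4.7e-06). The H3.3 genes moved in opposite directions, H3f3a, which overlaps Gm17275 and H3f3aos, at -1.21 (SE 0.13) and H3f3b at 1.07 (SE 0.07).

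Of 12 germline small RNA genes 9 were lower, 4 of which reached 1 FPKM at GV alone, and 3 were higher (median -1.58), with a sum of 448 to 496 FPKM before and 64.8 to 68.6 FPKM after. Of the 8 that reached 1 FPKM at both stages 5 were lower and 3 higher, beside 41.9% and 37.2% of all such genes. Gtsf1, a zinc finger partner of PIWI proteins, fell from 309, 301 and 362 to 8.95, 9.25 and 9.86 FPKM (log2 -4.97, SE 0.09, adjusted p = 9.2e-09) and made up most of the sum at GV. Mael fell from 56.4, 57.9 and 46.2 to 5.35, 4.67 and 6.92 FPKM (log2 -3.04, SE 0.15, adjusted p = 5.2e-07). Ago2, the slicing Argonaute, fell from 4.04, 4.10 and 4.06 to 0.575, 0.724 and 0.711 FPKM (log2 -1.60, SE 0.10, adjusted p = 1.6e-06; exons shared with Chrac1), whereas Dicer1 stayed in the kept class at 11.1, 8.35 and 10.4 and 12.1, 12.9 and 12.5 FPKM (log2 0.31, SE 0.12, adjusted p = 0.038). Of 16 calcium signalling genes of the egg 7 were higher and 7 lower (median 0.18, and -0.48 with the length trend removed). Of the 14 that reached 1 FPKM at both stages 7 were higher and 5 lower, beside 37.2% and 41.9% of all such genes. Calm2, a calmodulin gene, fell from 457, 469.8 and 469.6 to 10.2, 9.83 and 9.76 FPKM, 46.9-fold (log2 -5.42, SE 0.06, adjusted p = 5.3e-09). The inositol trisphosphate receptor gene Itpr1, whose product releases calcium at fertilisation, rose from 1.70, 1.97 and 2.14 to 3.36, 3.65 and 3.38 FPKM (log2 0.61, SE 0.10, adjusted p = 0.0008; exons shared with Gm44040 and Gm44101).

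Of 21 genes known for their burst in the 2-cell embryo, 7 were tested and all 7 were lower at MII (median -1.59). The filter fixed that direction for 5 of them, 4 Zscan4 genes and Trim43c, which reached 1 FPKM at GV alone. Tcstv1 fell from 98.5, 87.5 and 99.5 to 42.8, 35.1 and 32.7 FPKM (log2 -1.35, SE 0.11, adjusted p = 9.9e-06) and Tcstv3 from 55.1, 44.0 and 51.7 to 12.6, 11.4 and 11.99 FPKM (log2 -1.98, SE 0.10, adjusted p = 7.5e-07). The other 5 had GV levels of 10.4 FPKM or less, the Zscan4 genes are near copies of each other and Trim43c overlaps 9330159M07Rik. Outside coding genes, 66.0% of 268 antisense transcripts were lost and 1.87% had risen, and of 636 lincRNAs 53.5% were lost and 5.03% had risen, beside 35.9% and 14.9% of 8365 coding genes. How many of each kind passed the filter at GV alone, which fixes their direction, was not counted, so these shares cannot be compared as preferential loss. Whether the counting used strand is not given in the sources used here, so reads of an antisense transcript and of its partner cannot be told apart.

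The later wild-type stages show what became of the classes in the embryo. Of the 4637 lost genes 4146 (89.4%) stood more than 2-fold below their GV level in zygotes labelled PN5, a pronuclear stage. In 2-cell embryos 2488 (53.7%) did so, while 1151 (24.8%) were at or above the GV level. Against their MII level, 2096 lost genes (45.2%) stood more than 2-fold higher at PN5 and 3253 (70.2%) at the 2-cell stage. The median lost gene stood at 9.42 to 9.51 FPKM in GV libraries, 0.93 to 0.97 FPKM at MII, 1.67 to 1.91 FPKM at PN5 and 4.78 to 5.45 FPKM at the 2-cell stage. Of the 1491 risen genes 785 (52.6%) were more than 2-fold below their MII level in 2-cell embryos and 398 (26.7%) more than 4-fold. Of the kept genes 376 (26.4%) were more than 2-fold below their MII level in 2-cell embryos. These shares are a description, since the GV or MII level that each ratio is taken to also enters the class. The same shares over all tested genes were not counted. FPKM is relative, and mitochondrial genes held 8.30 to 21.8% of its sum at PN5 and 23.6 to 30.7% at the 2-cell stage. The part of that shift in the shares was not tested.

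Single genes followed different courses after MII. Among lost genes Calm2 went from 32.8 ± 16.3 FPKM at PN5 to 676 ± 46.9 FPKM in 2-cell embryos (mean ± SD, n = 3). Zp3 stayed low at 54.2 ± 21.0 and 67.1 ± 16.9 FPKM, and Figla at 2.35 ± 1.99 and 1.82 ± 0.361 FPKM. Elobl stood at 498 ± 187 FPKM at PN5 and 88.1 ± 12.3 FPKM at the 2-cell stage, without a test. Some risen genes were low by the 2-cell stage. Plat went to 46.6 ± 19.5 FPKM at PN5 and 3.91 ± 1.33 FPKM at the 2-cell stage. Bub1b went to 91.0 ± 30.8 and 5.62 ± 1.72 FPKM. Bcl2l10 held 10783 ± 686 FPKM at PN5 before it stood at 725 ± 225 FPKM. Oog3 was still at 3666 ± 344 FPKM in 2-cell embryos. Of the kept genes, Obox2 stood at 4107 ± 1770.0 FPKM at PN5 and 135 ± 31.3 FPKM at the 2-cell stage, and Dppa3 at 5303 ± 804 FPKM.

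**Figure D5:**
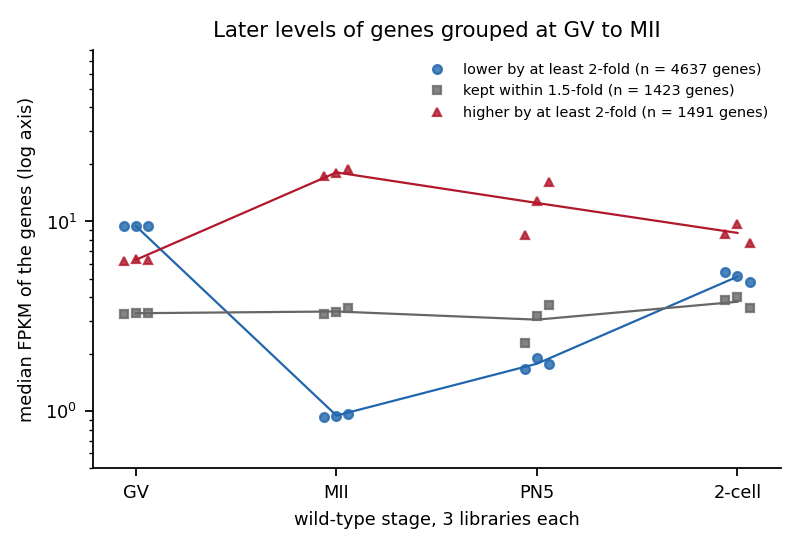
Median FPKM (log axis) of the 4637 lost, 1423 kept and 1491 risen genes in each wild-type library of 4 stages (horizontal axis), 1 point a library, with lines joining the mean of the 3 libraries. The lost genes stand at 9.42 to 9.51 at GV, 0.93 to 0.97 at MII and 4.78 to 5.45 at the 2-cell stage, while the risen genes stand at 17.4 to 19.0 at MII and spread between 8.49 and 16.2 at PN5.

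The change was compared with that of the Nlrp14 knockout, with 3 GV and 3 MII libraries of 5 oocytes each. Nlrp14 in those libraries stood at 22.2, 23.7 and 39.2 FPKM at GV and at 14.6, 22.9 and 21.3 FPKM at MII, below every wild-type library. Of 12478 genes tested for a difference between the changes of the genotypes 15 passed (0.12%), and 829 had an unadjusted p under 0.05. Those that passed include microRNA genes that never exceeded 1.43 FPKM. Only 1 of the 15 met the rule for naming, Ndufa1, a small subunit of complex I. In wild type it fell from 96.3, 84.0 and 99.99 to 21.3, 23.9 and 14.2 FPKM. In the knockout it stood at 96.8, 99.5 and 201 FPKM at GV and 3.90, 4.90 and 2.93 FPKM at MII (difference of the changes log2 -2.49, SE 0.40, adjusted p = 0.041). All 3 knockout MII libraries lay below all 3 of the wild type. KO_GV replicate 3 stood apart with a length slope of -0.88 and holds the high Ndufa1 value. The number of genes called went to 1, 1 and 2 without WT_GV replicate 1, 2 and 3, to 2 and 4 without WT_MII replicate 1 and 2, to 2 without KO_MII replicate 3 and to 121 without KO_GV replicate 3. A p that misses the threshold does not show that the genotypes matured alike.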

How the data were processed

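RNA was sequenced from wild-type and Nlrp14 knockout mouse oocytes and embryos at 4 stages, with 3 libraries a group. The authors deposited 1 table of FPKM per library. StringTie and GRCm38 are named in the submitters' processing notes; the aligner and annotation release are not given in the sources used here. Of 55487 gene identifiers 55227 matched a symbol in GENCODE M21 and 260 did not, and no library pair held identical values. Fragments per library were read from the step between low FPKM values of 34257 genes with 1 transcript (98.8 to 99.2% of values up to 30 steps were whole multiples within 0.02 of a step, over the 24 libraries).

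log2(FPKM + 1) was compared with limma 3.58.1 (R 4.3.3; moderated with trend and robust options, Benjamini-Hochberg over all genes tested, adjusted p under 0.05) in the 6 wild-type libraries, keeping genes with at least 1 FPKM in 3 of them. The genotype difference used a fit of 12 libraries. The fit was tested on simulated data. Sequence elements were counted with pandas 2.3.3 and numpy 2.4.6 under Python 3.11.15, and matplotlib 3.10.9 drew the plots. Alternatives were median-of-ratios scaling, TPM, removal of the length trend, a pseudocount of 0.1, other filters, all 24 libraries in one fit, a replicate block and leaving out each library.

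Members and the 27 gene lists were chosen with earlier results of these data known. Named genes were, without predicted genes and pseudogenes, the 10 largest falls and rises at a mean of at least 20 FPKM with groups that do not overlap, the 8 most abundant lost, risen and kept genes, up to 4 of each list by smallest p, 12 genes that define the step, and called genotype differences at 20 FPKM or more; some genes that meet this rule are not reported here. Other genes named with values (Astl, Aurka, Aurkb, Aurkc, Cdca8, Cdk1, Cnot1, Cpeb1, Cpeb4, Dicer1, Dnmt1, Fbxo43, H3f3a, H3f3b, Itpr1, Nup43, Obox5, Oosp1, Polr2c, Psmd1, Wee1, Wee2, Zar1, Zbed3), further list members named by direction and the printed sequences were chosen after their values were seen.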

Additional observations from a re-analysis of the deposited data

Results flagged for a closer look

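In 15 genes the change from GV to MII differed between the Nlrp14 knockout and the wild type in the test of that difference itself (limma interaction, adjusted p under 0.05 over 12478 genes). Values are the knockout change minus the wild-type change on the log2(FPKM + 1) scale. The fall was deeper in the knockout for Ndufa1 (-2.49), Gm10076 (-2.43), Gm10736 (-2.29) and Gm11808 (-2.04), all of which fell in both genotypes. For Gm49373 (-2.34) and Gm13962 (-1.94) the difference lay at GV, where levels were 6.63 to 8.70 and 2.59 to 3.90 FPKM in the knockout against at most 0.760 and 0.538 FPKM in the wild type. Zglp1, which shares exon sequence with Gm49373, had the opposite sign (2.19), with wild-type GV levels of 4.42 to 5.78 FPKM against 0.150 to 0.230 FPKM without Nlrp14, and so had Esp4 (1.51). Mtus1 (1.74) fell in the wild type from 19.5 to 19.8 FPKM at GV to 5.46 to 6.10 FPKM at MII and stood at 13.5 to 20.6 and 15.9 to 24.7 FPKM in the knockout. Tmem243 (2.02) and Smap1 (2.59) likewise were lower at MII in the wild type and higher in the knockout. The microRNA genes Mir6997 (-1.18), Mir5113 (-1.17), Mir6359 (-1.08) and Mir3473a (1.12) never exceeded 1.43 FPKM and were listed at 0 in whole groups, so that no fold is given. Mir6997 stood at 1.43, 1.25 and 1.15 FPKM in the WT_MII libraries, whose steps for a 1-kb gene were 0.101, 0.0884 and 0.0814 FPKM. Values in such proportion to the step are the same low number of fragments in each library. The same holds for the other microRNA genes, so their small spread does not measure variation of the level.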

How the results depend on the processing

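With genes kept only at a mean of at least 5 FPKM (5735 tested), 2978 genes were lower, 2171 higher, 2426 lost, 574 kept within 1.5-fold and 7 differed between genotypes (5619 tested). Fewer genes were tested there, and what else moved these counts was not tested. Leaving out 1 library at a time gave 3541 to 6101 lower, 3120 to 3436 higher, 2543 to 4651 lost, 1380 to 1477 risen and 1113 to 1265 kept genes. The low ends for lower and lost genes came without WT_GV replicate 1, 2 or 3 (3541, 3566 and 3542 lower; 2543, 2555 and 2584 lost), when 9075 to 9081 genes passed the filter. With the same 11610 genes tested, an alternative chosen after seeing the data, the ranges were 5999 to 6103, 3418 to 3557, 4609 to 4666, 1428 to 1518 and 1171 to 1318. Risen genes numbered 2417 after median-of-ratios scaling and 2692 on TPM. Kept genes numbered 787 on TPM, 766 with a pseudocount of 0.1, 13823 with no filter (28072 tested) and 2490 with all 24 libraries in one fit; the cause was not tested. The genotype difference was called in 46 genes with no filter (30093 tested) and in 1 to 121 genes with 1 library left out, the highest without KO_GV replicate 3. Dppa3 reversed to 0.20 after median-of-ratios scaling, 0.11 on TPM and 0.23 with the length trend removed. Bmp15 reversed to 0.19 and 0.095 under the first 2 of these, Fbxw14 to 0.059 under the first and Odf2 to -0.15 with the length trend removed. The labels do not say whether libraries with the same replicate number share a source. Same-numbered libraries had correlations of deviations of 0.0273, -0.0264 and -0.00338, which cannot show whether the samples were paired. With the replicate number as a block 9668 genes passed, 9560 of them also without it, and 2 genes differed between genotypes. Of the values of 139 named genes under 20 settings, 2675 kept their direction and call, 27 lost the call, 7 gained it and 7 reversed. Arm sizes of 3, low FPKM values near 1 fragment and the unknown RNA amount per oocyte limit what these libraries can show.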
